A study of Homo sapiens with 16 samples.

Results

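Transcript levels were measured for 10 genes of the WNT pathway in 2 estrogen-responsive human cancer cell lines. The set holds 6 genes for secreted WNT ligands (WNT4, WNT5A, WNT5B, WNT7A, WNT7B and WNT11) and 4 genes known as feedback targets of WNT signaling (AXIN2, LGR5, NKD1 and RNF43). They were taken by name from 26364 genes in the count table of each line, and all 10 were listed in both tables. Ishikawa is an established line from an adenocarcinoma of the human endometrium, and T-47D one from a human breast carcinoma. Cells were kept in hormone-deprived medium for 3 days according to the labels, while the methods of the study give a longer time, and then given 10 nM 17β-estradiol (E2) for 2, 4 or 8 h, while the 0 h cells received vehicle. Each time point had 2 replicates, which gave 8 RNA-seq libraries per line and 16 in all. The 0 h libraries were the only ones with vehicle, so a change after E2 cannot be told apart from one over time in culture. The labels do not say whether replicates were separate cultures, so the p-values measure the spread between these libraries, which may be technical. Each line is a single cell population in culture and stands in for its tissue only as such.

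WNT proteins are lipid-modified secreted ligands that bind Frizzled receptors together with LRP5 or LRP6. In the canonical arm this stabilizes β-catenin, which enters the nucleus and acts with TCF/LEF factors on target genes, while other arms act on cell polarity and calcium without β-catenin. AXIN2, NKD1 and RNF43 are both targets and brakes of the pathway, and LGR5 is a receptor for R-spondins, which relieve the brake that RNF43 and ZNRF3 put on Frizzled. In the uterus WNT7A is made by the luminal epithelium and WNT4 and WNT5A mainly by the stroma, and in the breast WNT4 is known as a paracrine signal downstream of ovarian hormones.

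Promoter sequences are given for 3 members, WNT7A, WNT4 and RNF43, so that the sequence before the start site can be read beside the values. The windows of WNT5A and WNT5B were searched for motifs but are not printed. RefSeq entries of human promoters on GRCh38 matched 5 of the 10 members, in 8 windows: 1 each for WNT4 and WNT7A and 2 each for WNT5A, WNT5B and RNF43. The 250 bases before the start site are written 5′ to 3′ on the strand of the gene. Capitals mark each CpG dinucleotide, except in the second RNF43 entry, which has 0 CpG and where capitals mark the AP-1 motif.
WNT7A, chr3:13880072-13880321, minus strand: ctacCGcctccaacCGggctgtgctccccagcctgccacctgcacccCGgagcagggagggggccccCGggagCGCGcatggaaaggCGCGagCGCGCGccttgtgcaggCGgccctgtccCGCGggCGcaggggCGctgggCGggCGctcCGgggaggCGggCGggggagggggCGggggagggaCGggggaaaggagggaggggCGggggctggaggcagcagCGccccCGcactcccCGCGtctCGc
WNT4, chr1:22143098-22143347, minus strand: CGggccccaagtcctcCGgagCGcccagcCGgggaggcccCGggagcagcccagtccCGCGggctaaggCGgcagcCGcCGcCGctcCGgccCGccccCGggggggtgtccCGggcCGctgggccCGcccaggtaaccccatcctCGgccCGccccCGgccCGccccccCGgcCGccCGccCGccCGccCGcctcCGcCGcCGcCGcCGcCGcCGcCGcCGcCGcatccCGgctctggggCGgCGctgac
RNF43 entry 1, chr17:58417535-58417784, minus strand: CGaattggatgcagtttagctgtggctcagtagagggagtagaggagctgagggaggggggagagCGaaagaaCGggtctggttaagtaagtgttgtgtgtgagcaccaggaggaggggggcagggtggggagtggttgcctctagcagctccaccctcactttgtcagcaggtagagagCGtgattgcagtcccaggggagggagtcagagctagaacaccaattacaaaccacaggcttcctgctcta
RNF43 entry 2, chr17:58402722-58402971, minus strand: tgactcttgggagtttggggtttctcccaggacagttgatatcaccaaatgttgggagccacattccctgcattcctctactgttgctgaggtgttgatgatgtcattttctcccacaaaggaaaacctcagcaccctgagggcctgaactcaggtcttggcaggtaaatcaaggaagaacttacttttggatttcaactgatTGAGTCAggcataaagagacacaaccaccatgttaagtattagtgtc
The WNT7A window held 29 CpG dinucleotides and had a GC content of 80.4%, and the WNT4 window held 40 with a GC content of 86.8%. The median over all 35116 promoter windows was 11 CpG and a GC content of 58.0%, and 14.1% of windows held at least as many CpG as that of WNT7A. The first RNF43 entry held 4 CpG with a GC content of 56.0%, and 34.3% of windows held as few or fewer. No DNA methylation or factor binding was analysed here, so these are descriptions of the sequence. Each 300-base window, which adds the first 50 transcribed bases, was searched on both strands for 4 motifs. The full estrogen response element (GGTCANNNTGACC) is in 0.057% of all windows and was in 0 of the 8 windows of members. Its half-site (GGTCA), which the full element contains, is in 37.4% of all windows and was in 1 of the 8, the second WNT5B entry. The TCF/LEF motif (CTTTGAT) is in 2.62% of all windows and was in 0 of the 8. The AP-1 motif (TGANTCA) is in 7.71% of all windows and was in 1 of the 8, the second RNF43 entry.

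On GRCh37 (hg19), the build of the counts, GENCODE gives the position of each member. The ligand genes are WNT4 at chr1:22443806-22470462, WNT5A at chr3:55499743-55524567, WNT7A at chr3:13857755-13921568, WNT7B at chr22:46316246-46373042 and WNT11 at chr11:75897369-75921780, all on the minus strand, and WNT5B at chr12:1639057-1756378 on the plus strand. The feedback targets are AXIN2 at chr17:63524681-63557766 and RNF43 at chr17:56431037-56494956 on the minus strand, and NKD1 at chr16:50582307-50683160 and LGR5 at chr12:71833578-71980090 on the plus strand. Counts were per gene over exons, so no isoform of a member could be followed.

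Libraries held 41177912 to 58918642 counts in Ishikawa cells and 41223813 to 64148903 in T-47D cells. Among low counts, from 1 to 10, 71.2% to 74.6% were even, so single counts may not be independent fragments, and low counts are less certain than they look. Of 5 endometrial epithelial markers, 5 reached a mean of 1 CPM (a count scaled to library size) in Ishikawa cells, against 0 in T-47D cells. Of 6 luminal breast markers, 5 did so in T-47D cells, ANKRD30A being the exception, and 3 in Ishikawa cells, where GATA3, TFF1 and ANKRD30A were below 0.1 CPM. All 5 general epithelial markers reached 1 CPM in both lines. Of 5 fibroblast markers, 2 did so in Ishikawa cells (summed level 157 to 284 CPM, mostly COL1A1) and 1 in T-47D cells (71.2 to 92.4 CPM, mostly COL1A1), while PDGFRB was below 0.1 CPM in both lines. Leukocyte markers summed to at most 3.88 CPM in any library, with PTPRC, CD3E and LYZ below 0.1 CPM in both lines, and endothelial markers to at most 8.64 CPM, with PECAM1 and CDH5 below 0.1 CPM. In Ishikawa cells the 4 h and 8 h libraries resembled each other across their labels: log2 CPM of the 4 h replicates correlated at r = 0.992 with each other, and 4 h replicate 2 and 8 h replicate 1 correlated at r = 0.994. The labels were kept as given, and results at 4 h and 8 h in Ishikawa cells are also given with these 4 libraries as 1 group where that changes a call. In bulk RNA, fewer cells that make a transcript and less of it per cell cannot be told apart.

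Before E2, the lines differed in which WNT ligand they made. To compare genes within a line, counts were divided by the union of exon lengths and scaled to a fixed total per library, a TPM-like level written as TPM here. In Ishikawa cells at 0 h, WNT7A was the most abundant member at 46.7 ± 4.40 TPM (SD, n = 2), followed by WNT7B at 9.07 ± 0.668 TPM and AXIN2 at 7.25 ± 0.541 TPM. WNT5B at 2.34 ± 0.219 TPM and RNF43 at 2.03 ± 0.567 TPM came next and overlapped between replicates. The last were NKD1 at 0.774 TPM, WNT11 at 0.531 TPM, WNT4 at 0.373 TPM, LGR5 at 0.342 TPM and WNT5A at 0.0954 TPM, and among these WNT4 and LGR5 overlapped. The annotated exons of NKD1 add up to 17359 bases, so its per-length level is low for its counts.

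In T-47D cells at 0 h, WNT7B was highest at 43.6 ± 2.32 TPM (SD, n = 2) and RNF43 second at 19.6 ± 0.782 TPM. WNT11 was at 8.07 ± 2.55 TPM, WNT4 at 4.23 ± 1.14 TPM, WNT5A at 1.05 ± 0.165 TPM and AXIN2 at 0.297 ± 0.124 TPM, with no overlap between neighbors in this order. NKD1 at 0.0607 TPM and LGR5 at 0.0212 TPM had 0 counts in 1 of the 2 replicates, and WNT5B and WNT7A had 0 counts in both. For reference, the median gene kept in the fit was at 22.0 TPM in Ishikawa cells and 21.3 TPM in T-47D cells, so only WNT7A in Ishikawa cells and WNT7B in T-47D cells exceeded it. The order of the members was the same with the longest transcript or the MANE Select transcript as length. The one difference was that WNT5B and RNF43 in Ishikawa cells then no longer overlapped.

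**Figure D1:**
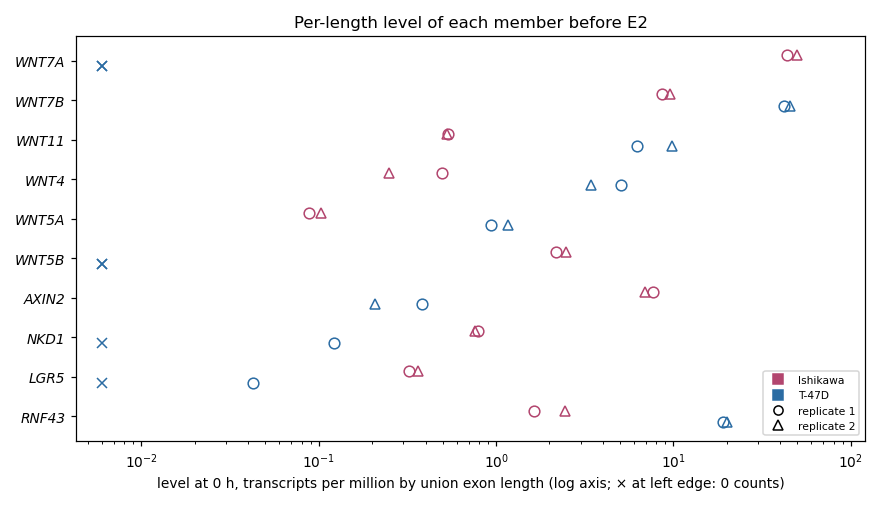
Per-length level (TPM) of each member at 0 h on a log axis, with Ishikawa cells in red and T-47D cells in blue and 1 symbol per replicate. A cross at the left edge stands for 0 counts. WNT7A and WNT5B had 0 counts in both T-47D replicates, and WNT7B, WNT11, WNT4, WNT5A and RNF43 lay to the right in T-47D cells.

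The difference between the lines at 0 h was tested over all 16 libraries with edgeR's quasi-likelihood test, and a gene was called at an adjusted p (Benjamini-Hochberg over all genes tested) under 0.05. All 10 members were called, beside 81.9% of the 17090 genes tested, so a call by itself says little here and the sizes are the result. In T-47D cells WNT11 was higher by 3.95 ± 0.38 on the log2 scale (SE), WNT4 by 3.54 ± 0.36, WNT5A by 3.47 ± 0.48, RNF43 by 3.31 ± 0.14 and WNT7B by 2.30 ± 0.09. AXIN2 was lower in T-47D cells, with a log2 difference of -4.54 ± 0.27, and so was NKD1, at -3.57 ± 0.48. The NKD1 value rests on 1 library, because T-47D replicate 2 had 0 counts, and the difference ranged from -10.02 to -2.61 as single libraries were left out. LGR5 had 34 counts over the Ishikawa pair and 2 over the T-47D pair, a ratio of CPM of 15.7 (exact 95% interval 4.03 to 135, for counting error only). WNT7A was at least 621-fold lower in T-47D cells and WNT5B at least 29.1-fold lower, against a floor of 3 counts per library, which is 0.0701 CPM. Single counts may not be independent fragments, so the LGR5 interval may be too narrow and these 2 lower bounds too high.

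In Ishikawa cells, WNT7A was lower and WNT7B higher after E2, while WNT11, AXIN2 and RNF43 moved by less certain amounts. At 2 h 1 of 10 members was called against 0 h (WNT7A), beside 4.35% of the 15787 genes tested. At 4 h 4 of 10 were called (WNT7A, WNT7B, AXIN2 and RNF43), beside 14.3% of genes, and at 8 h 4 of 10 (WNT7A, WNT7B, AXIN2 and WNT11), beside 22.1%. The median log2 fold change of the 10 members was 0.04, -0.15 and -0.02 at 2, 4 and 8 h, with falls and rises in the same set, and that of all genes lay between -0.01 and 0.01. These comparisons share the same 0 h libraries, so they are not independent of each other. All CPM values below are scaled by TMM library sizes.

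WNT7A, a ligand needed for patterning and gland formation in the uterus, was the member with the most counts in this line. At 0 h its replicates held 1877 and 2156 counts, or 40.8 and 46.3 CPM. After E2, CPM values were 26.5 and 25.5 (2 h), 29.5 and 25.0 (4 h) and 22.7 and 30.1 (8 h). All 6 treated libraries lay below both 0 h libraries, and the fall was in place at the first time sampled. On the log2 scale the fold change was -0.75 ± 0.12 (SE) at 2 h (edgeR adjusted p = 8.07e-04), -0.68 ± 0.12 at 4 h (edgeR adjusted p = 0.00111) and -0.73 ± 0.12 at 8 h (edgeR adjusted p = 4.95e-04). The change was -40.4%, -37.4% and -39.5%, and the call at each time was kept without any single library. In T-47D cells WNT7A had 0 counts in all 8 libraries, also after E2, which leaves nothing to compare.

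WNT7B, the close paralog of WNT7A that also acts through β-catenin, moved the other way in the same cells. Its replicates were at 9.01 and 9.94 CPM at 0 h, 10.8 and 11.2 CPM at 2 h, 14.4 and 12.7 CPM at 4 h and 13.7 and 12.8 CPM at 8 h. All treated libraries lay above both 0 h libraries, by a smaller margin at 2 h. Against 0 h, the log2 fold change was 0.21 ± 0.11 at 2 h (edgeR adjusted p = 0.357), 0.52 ± 0.11 at 4 h (edgeR adjusted p = 0.00572) and 0.48 ± 0.11 at 8 h (edgeR adjusted p = 0.00579). Without 4 h replicate 1 the 4 h call was lost, at a log2 fold change of 0.41 and an adjusted p of 0.0815, while the 8 h call was kept without any single library.

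WNT11, a ligand of the non-canonical arm, was rare in Ishikawa cells. Its counts were 12 and 12 without E2 (0 h), then 24 and 62 (2 h), 26 and 26 (4 h), and 58 and 20 (8 h). In CPM this was 0.261 and 0.258 (0 h), 0.567 and 1.13 (2 h), 0.645 and 0.630 (4 h), and 0.985 and 0.457 (8 h). All 6 treated libraries were above both 0 h libraries, but replicates of 2 h and of 8 h differed about as much as the time points did. This gave a log2 fold change of 1.73 ± 0.49 at 2 h (edgeR adjusted p = 0.0627), 1.29 ± 0.52 at 4 h (edgeR adjusted p = 0.108) and 1.50 ± 0.49 at 8 h (edgeR adjusted p = 0.0412). The 8 h call was lost without 8 h replicate 1 or without either 0 h library, with log2 fold changes of 0.81 to 1.91 and adjusted p-values of up to 0.408 over all single omissions. With the 4 h and 8 h libraries as 1 group, WNT11 was called at a log2 fold change of 1.40 (adjusted p = 0.0275). The change at 4 h was also called with no filter on low counts (edgeR adjusted p = 0.0388), as was the change at 2 h (edgeR adjusted p = 0.00277). Against this, the 8 h call was lost with DESeq2 (DESeq2 adjusted p = 0.0534) and with the replicate block (edgeR adjusted p = 0.0543).

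The remaining ligands were called at no time in Ishikawa cells. WNT5B, thought to act mainly without β-catenin, held 79 to 101 counts in every library, from 1.34 to 2.38 CPM, and its treated libraries lay on both sides of the 0 h values. WNT4 had 6 to 32 counts and WNT5A 2 to 21, and at these depths replicates of 1 time point could differ as WNT5A did at 4 h, with 2 and 8 counts.

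Among the feedback targets, AXIN2, a scaffold of the complex that degrades β-catenin and a widely used readout of canonical signaling, was at 8.19 and 7.32 CPM at 0 h. It was at 5.60 and 6.77 CPM at 2 h, 5.51 and 5.79 CPM at 4 h and 5.59 and 6.05 CPM at 8 h. All treated libraries were below both 0 h libraries. In the fit, the log2 fold change was -0.32 ± 0.14 at 2 h (edgeR adjusted p = 0.260), -0.46 ± 0.14 at 4 h (edgeR adjusted p = 0.0468) and -0.42 ± 0.14 at 8 h (edgeR adjusted p = 0.0475). Both calls lie near the threshold: each was lost without any single library of 0 h, of 2 h or of its own time, with adjusted p-values of up to 0.195 at 4 h and 0.197 at 8 h. Both were also lost with DESeq2 (adjusted p = 0.0511 and 0.062), with the replicate block (0.056 and 0.0572) and with only the libraries compared (0.0643 and 0.065). With the 4 h and 8 h libraries as 1 group the log2 fold change was -0.44 (adjusted p = 0.0129).

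RNF43, a membrane ubiquitin ligase that removes Frizzled receptors from the surface, had 98 and 147 counts at 0 h, or 2.13 and 3.16 CPM. It was at 1.72 and 2.05 CPM at 2 h, 1.49 and 1.48 CPM at 4 h and 1.77 and 1.96 CPM at 8 h. All treated libraries were below both 0 h libraries, which themselves differed by more than any other pair. Its log2 fold change was -0.48 ± 0.24 at 2 h (edgeR adjusted p = 0.327), -0.83 ± 0.25 at 4 h (edgeR adjusted p = 0.0355) and -0.51 ± 0.24 at 8 h (edgeR adjusted p = 0.141). The 4 h call was lost without either 4 h or either 2 h library or without 0 h replicate 2, with log2 fold changes of -1.09 to -0.52 and adjusted p-values of up to 0.319. At 8 h the log2 fold change ranged from -0.759 to -0.193 as single libraries were left out, and a call was gained only without 0 h replicate 1. With 4 h and 8 h as 1 group the log2 fold change was -0.65 (edgeR adjusted p = 0.0293). An antisense gene, TSPOAP1-AS1, overlaps exons of RNF43, and its own row held at most 18 counts in any Ishikawa library and at most 10 in any T-47D library.

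LGR5 and NKD1 were not called. LGR5 had 16 and 18 counts at 0 h and between 5 and 11 in the treated libraries, so all 6 were lower, but at this depth the log2 fold change of -1.22 ± 0.56 at 2 h did not pass the test (edgeR adjusted p = 0.290). NKD1, an inhibitor that binds Dishevelled, measured 2.82 and 2.71 CPM before E2 and 3.35 and 3.95 CPM after 8 h, with a log2 fold change of 0.40 ± 0.20 (edgeR adjusted p = 0.167).

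From 2 h to 8 h, 0 of 10 members were called in Ishikawa cells by edgeR, beside 2.24% of genes, and from 4 h to 8 h 0 of 10, beside 0.0127%. At an unadjusted p under 0.05 there was 1 member from 2 h to 8 h (WNT7B, log2 fold change 0.27 ± 0.11) and 0 from 4 h to 8 h. DESeq2 called 0 in both comparisons, with 1 and 0 at an unadjusted p under 0.05.

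**Figure D2:**
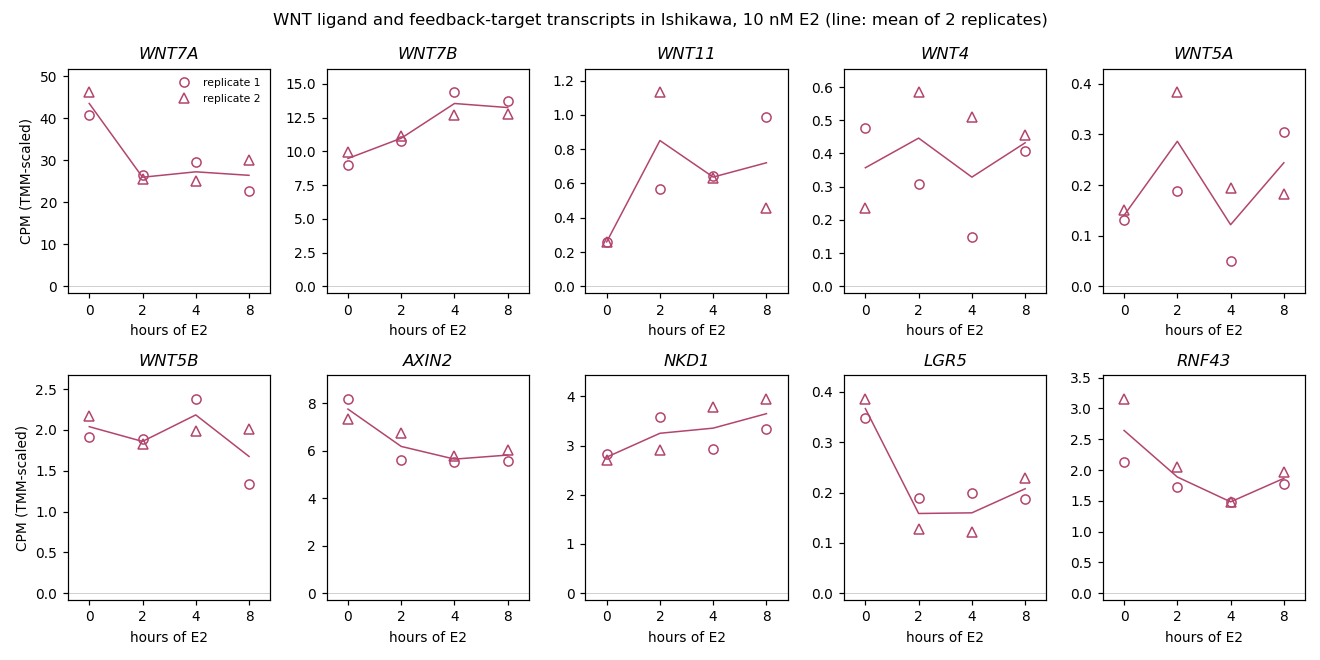
TMM-scaled CPM of each member in Ishikawa cells against hours of E2 (evenly spaced), with circles and triangles for replicates 1 and 2 and a line through their mean, each panel on its own linear axis. WNT7A lay between 22.7 and 30.1 CPM in the treated libraries against 40.8 and 46.3 CPM at 0 h, and WNT7B rose to 12.7 to 14.4 CPM at 4 h.

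In T-47D cells every called member fell. RNF43 fell within 2 h, WNT7B by a small amount, and WNT11, WNT4 and WNT5A were called at 8 h. WNT5B, WNT7A and LGR5 had too few counts to be tested (at most 6 in any library), which left 7 of 10 members. Called members were 2 of 7 at 2 h (RNF43 and WNT7B), beside 9.30% of the 15594 genes tested, 2 of 7 at 4 h, the same pair, beside 21.5%, and 5 of 7 at 8 h, beside 29.7%. Of the called, 0 rose. The median log2 fold change of the 7 tested members was -0.31, -0.43 and -0.70 at 2, 4 and 8 h, against medians of all genes between -0.01 and 0.00. Here too the comparisons share their 0 h libraries.

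RNF43 had 1085 and 1055 counts in the T-47D 0 h libraries, against 98 and 147 in Ishikawa cells. It was at 24.4 and 25.6 CPM at 0 h, 12.5 and 14.1 CPM at 2 h, 14.9 and 14.3 CPM at 4 h and 15.6 and 15.2 CPM at 8 h. It was lowest at 2 h, and no treated library came near the 0 h values. On the log2 scale the fold change was -0.91 ± 0.08 at 2 h (edgeR adjusted p = 5.05e-07), -0.77 ± 0.08 at 4 h (edgeR adjusted p = 1.97e-06) and -0.70 ± 0.08 at 8 h (edgeR adjusted p = 4.44e-06). The change was -46.8%, -41.5% and -38.4%, and no call was lost without any single library. The change from 2 h to 8 h was 0.21 ± 0.09 on the log2 scale and did not pass the test (edgeR adjusted p = 0.107).

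WNT7B, the most abundant member in T-47D cells, was at 43.2 and 46.2 CPM at 0 h and between 35.6 and 38.3 CPM in the 6 treated libraries. None of these reached the 0 h values. Against 0 h, the log2 fold change was -0.24 ± 0.06 at 2 h (edgeR adjusted p = 0.0189), -0.27 ± 0.06 at 4 h (edgeR adjusted p = 0.00366) and -0.27 ± 0.06 at 8 h (edgeR adjusted p = 0.00315), changes of -15.3%, -17.3% and -16.9%. The 2 h call was lost without either 2 h library or 0 h replicate 2 (adjusted p up to 0.195), and the 4 h call without 4 h replicate 2 or 0 h replicate 2 (up to 0.0608), while the 8 h call was kept without any single library.

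WNT11 in T-47D cells was at 3.02 and 4.70 CPM at 0 h, 2.89 and 2.98 CPM at 2 h, 2.79 and 2.47 CPM at 4 h and 1.30 and 1.68 CPM at 8 h. The 0 h replicates were 134 and 194 counts and the 8 h replicates 65 and 84. The level was lowest at 8 h, clear of every other library. This gave a log2 fold change of -0.39 ± 0.21 at 2 h (edgeR adjusted p = 0.280), -0.55 ± 0.20 at 4 h (edgeR adjusted p = 0.0638) and -1.37 ± 0.22 at 8 h (edgeR adjusted p = 1.07e-04). The 8 h change of -61.3% was called without any single library. As single libraries were left out, the log2 fold change ranged from -0.667 to -0.03 at 2 h and from -0.829 to -0.192 at 4 h. Among these omissions, both changes became calls only without 0 h replicate 1, the lower of the 0 h pair. The 4 h change was also called with no filter on low counts (edgeR adjusted p = 0.0166). Between 2 h and 8 h WNT11 fell by 0.98 on the log2 scale (SE 0.22, edgeR adjusted p = 0.00515), a call lost without 8 h replicate 1. From 4 h to 8 h its log2 fold change was -0.82 ± 0.22 (edgeR adjusted p = 0.0487), near the threshold.

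WNT4 was at 4.75 and 3.20 CPM at 0 h, 3.60 and 3.61 CPM at 2 h, 3.05 and 2.87 CPM at 4 h and 2.36 and 1.94 CPM at 8 h. The 0 h replicates lay on both sides of the 2 h values, and both 8 h libraries were below all others. In the fit, the log2 fold change was -0.43 ± 0.19 at 4 h (edgeR adjusted p = 0.116) and -0.89 ± 0.19 at 8 h (edgeR adjusted p = 0.00185). The 8 h call was lost without 0 h replicate 1 (log2 fold change -0.57). At 4 h the log2 fold change ranged from -0.675 to -0.102 as single libraries were left out, and a call was gained only without 0 h replicate 2. From 2 h to 8 h WNT4 fell by 0.75 ± 0.19 on the log2 scale (edgeR adjusted p = 0.0127), which was lost without either 2 h library or 8 h replicate 2 (adjusted p up to 0.0979). WNT11 and WNT4 were the 2 of 7 members called in that comparison, beside 16.8% of genes.

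WNT5A, the prototype non-canonical ligand, was at 1.35 and 1.67 CPM at 0 h, 0.874 and 1.43 CPM at 2 h, 0.809 and 1.06 CPM at 4 h and 0.660 and 0.759 CPM at 8 h. Its counts fell from 60 and 69 at 0 h to 33 and 38 at 8 h, while 2 h replicate 2 lay within the range of the 0 h pair. Its log2 fold change was -0.70 ± 0.29 at 4 h (edgeR adjusted p = 0.101) and -1.09 ± 0.31 at 8 h (edgeR adjusted p = 0.0117). The 8 h call was lost without 8 h replicate 1 or 0 h replicate 2 (adjusted p up to 0.0835).

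AXIN2 and NKD1 were tested in T-47D cells at very low counts, and neither was called. AXIN2 had 8 to 18 counts in any library, or 0.167 to 0.405 CPM, and NKD1 0 to 19 counts, with 0 h replicates of 19 and 0. A change of the size seen for AXIN2 in Ishikawa cells was not detectable at this depth. LGR5 had 0 to 2 counts and WNT5B 0 to 6.

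**Figure D3:**
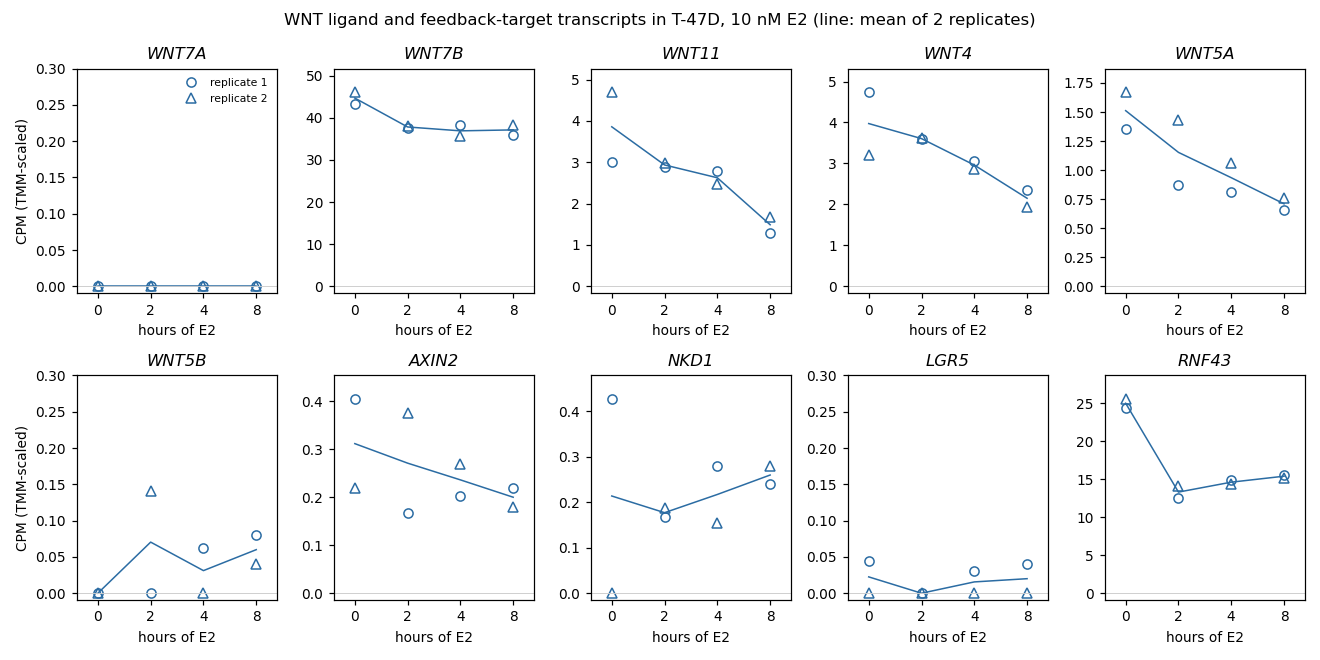
TMM-scaled CPM of each member in T-47D cells against hours of E2 (evenly spaced), with circles and triangles for replicates 1 and 2 and a line through their mean, each panel on its own linear axis. RNF43 lay between 12.5 and 15.6 CPM in the treated libraries against 24.4 and 25.6 CPM at 0 h, and WNT7A was at 0 in all 8 libraries.

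Whether a change differed between the lines was tested with an interaction term in the fit over all 16 libraries. At 2 h 1 of 10 members was called (WNT11), beside 2.67% of the 17090 genes tested, at 4 h 1 of 10 (WNT7B), beside 6.03%, and at 8 h 2 of 10 (WNT11 and WNT7B), beside 10.0%. All 10 entered this fit, but WNT7A, WNT5B and LGR5 were at or near 0 counts in T-47D cells, so their line differences cannot be read. Of the other 7, AXIN2 (8 to 18 counts) and NKD1 (0 to 19 counts) were sparse in T-47D cells, so small differences could be missed. The WNT7B change in T-47D cells minus that in Ishikawa cells was -0.44 ± 0.12 on the log2 scale at 2 h (edgeR adjusted p = 0.0629), -0.78 ± 0.12 at 4 h (edgeR adjusted p = 2.21e-04) and -0.76 ± 0.12 at 8 h (edgeR adjusted p = 2.17e-04). At 4 h and 8 h the WNT7B values of the treated libraries were above both 0 h libraries in Ishikawa cells and below both in T-47D cells. The calls at 4 h and 8 h were kept without any single library.

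For WNT11 the difference was -2.11 ± 0.52 at 2 h (edgeR adjusted p = 0.0296), -1.83 ± 0.55 at 4 h (edgeR adjusted p = 0.0546) and -2.88 ± 0.53 at 8 h (edgeR adjusted p = 0.00104). The 8 h call was kept without any single library, with differences of -3.32 to -2.21. The 2 h call was lost in 6 of 16 omissions (Ishikawa 2 h replicate 2, either Ishikawa 0 h library, either T-47D 2 h library and T-47D 0 h replicate 2), with adjusted p-values of up to 0.396.

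For RNF43, which was lower after E2 in every treated library of both lines, the difference between the lines was -0.42 ± 0.21 at 2 h (edgeR adjusted p = 0.524), 0.07 ± 0.22 at 4 h (edgeR adjusted p = 0.949) and -0.19 ± 0.21 at 8 h (edgeR adjusted p = 0.656). A p that misses the threshold does not show that the falls were equal. The difference for WNT5A at 8 h was -1.91 ± 0.70 (edgeR adjusted p = 0.0966) and for WNT4 at 8 h -1.16 ± 0.54 (edgeR adjusted p = 0.209), and neither passed the test. Both transcripts are rare in Ishikawa cells, and with no filter on low counts the WNT5A difference was called (-1.93, adjusted p = 0.045).

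**Figure D4:**
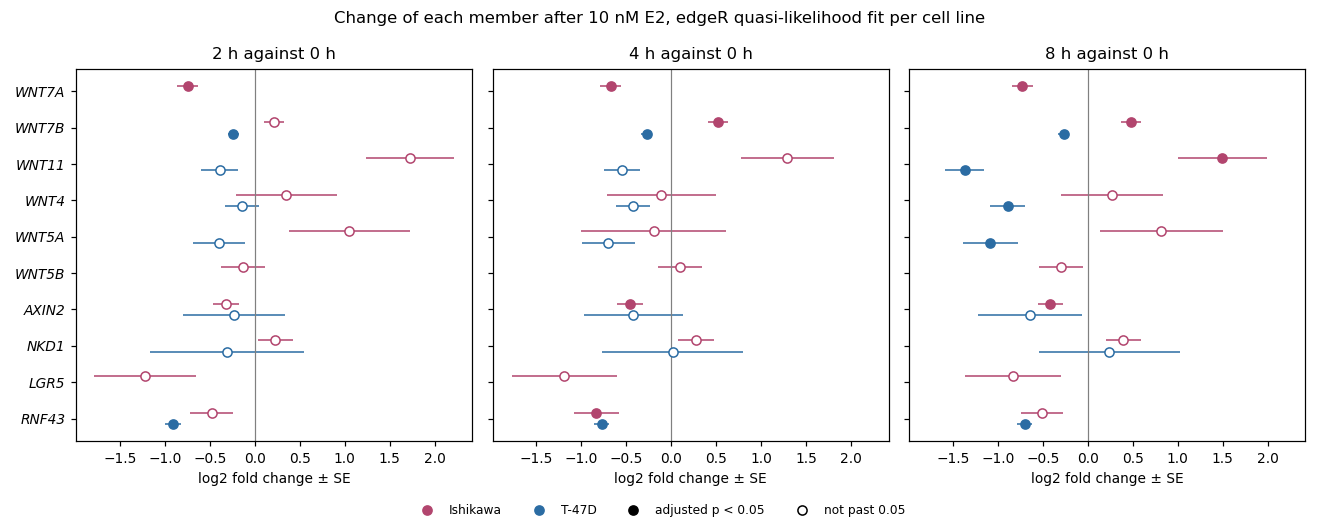
Log2 fold change of each member against 0 h with its standard error, at 2, 4 and 8 h, with Ishikawa cells in red and T-47D cells in blue and filled points for an adjusted p under 0.05. WNT7A, WNT5B and LGR5 were not tested in T-47D cells. WNT7B and WNT11 lie on opposite sides of 0 in the lines, at 8 h at 0.48 and 1.50 for Ishikawa cells against -0.27 and -1.37 for T-47D cells, and RNF43 lies below 0 in both.

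The make-up of the whole ligand transcript pool was described as the share of each gene in the summed TPM of the 19 human WNT ligand genes. In Ishikawa cells WNT7A made up 43.0% ± 1.94 of the pool at 0 h (SD, n = 2), 32.0% ± 1.30 at 2 h, 32.1% ± 0.156 at 4 h and 30.7% ± 4.70 at 8 h. WNT7B went from 8.35% ± 0.204 to 12.1% ± 0.113, 14.2% ± 0.311 and 13.8% ± 1.31. For each of these ligands, no treated library overlapped the 0 h libraries. Shares of 1 pool depend on each other, so a lower WNT7A level by itself raises the share of every other ligand. The WNT7B level at 2 h was not called against 0 h (log2 fold change 0.21, edgeR adjusted p = 0.357). The summed ligand level in Ishikawa cells was 105 and 112 TPM at 0 h and 82.5 to 94.0 TPM in the treated libraries. Ligands outside the members also held large shares at 0 h. In Ishikawa cells WNT3 made up 17.1% and 18.6% of the pool and WNT10B 14.5% and 13.7%, each more than WNT7B. In T-47D cells WNT9A made up 13.5% and 13.3% and WNT10B 9.01% and 10.1%. In T-47D cells WNT7B made up 54.5% ± 0.771 of the pool at 0 h, 54.8% ± 1.84 at 2 h, 55.8% ± 1.46 at 4 h and 55.1% ± 3.46 at 8 h, so its share stayed within the spread between replicates, while the summed ligand level was 76.2 and 83.8 TPM at 0 h and 64.3 to 69.7 TPM after E2.

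**Figure D5:**
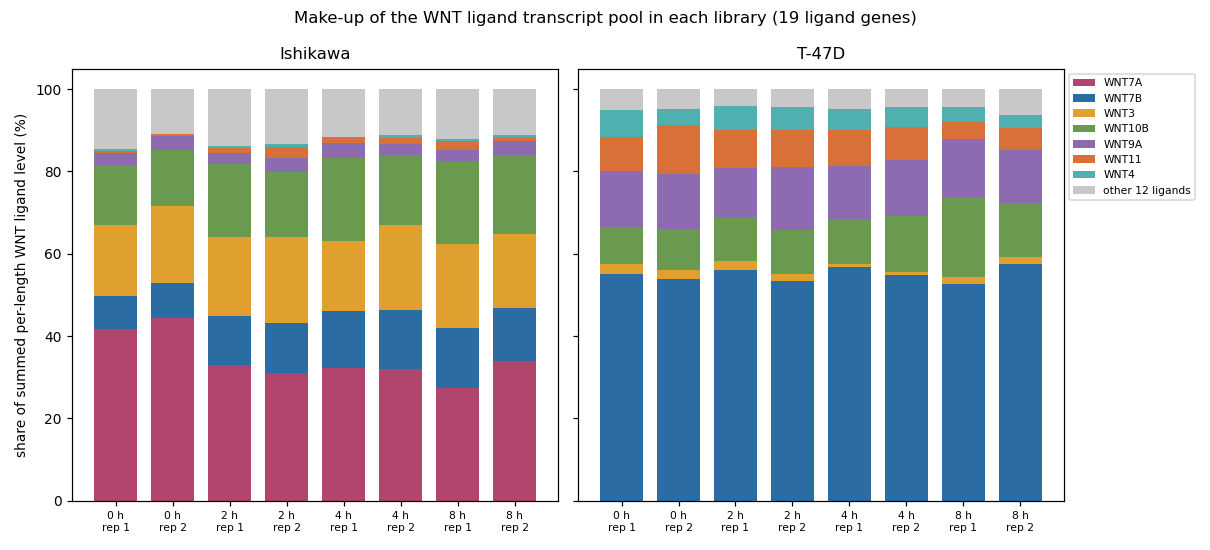
Share of each WNT ligand in the summed per-length ligand level of each library, in percent, for Ishikawa cells on the left and T-47D cells on the right. WNT7A and WNT7B are the lowest segments, and WNT7A shrinks from 43.0% to 30.7% of the pool in Ishikawa cells between 0 h and 8 h while WNT7B stays at 54.5% to 55.8% in T-47D cells.

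The other genes of the pathway give the setting of these changes. Of 103 further WNT pathway genes, 87 were tested in Ishikawa cells, where 6 rose and 6 fell at 2 h (13.8% called, beside 4.35% of all genes). At 4 h 8 rose and 8 fell (18.4%, beside 14.3%), and at 8 h 11 rose and 11 fell (25.3%, beside 22.1%), so the later shares lie near those of all genes. In T-47D cells 73 were tested, and 5 rose and 13 fell at 2 h (24.7%, beside 9.30% of all genes). By 4 h this was 11 up and 17 down (38.4%, beside 21.5%), and by 8 h 10 up and 21 down (42.5%, beside 29.7%). Their median log2 fold change lay between 0.01 and 0.06 in Ishikawa cells and was -0.06 at each time in T-47D cells. Among 13 other WNT ligands, 8 could be tested in Ishikawa cells, where 0 rose and 0, 0 and 1 fell at 2, 4 and 8 h. In T-47D cells 6 could be tested, where 0 rose and 0, 1 and 2 fell. The shares of all genes called in either direction are those above, and with so few calls no common direction can be read from these counts. WNT3 went from 2.07 and 1.84 CPM at 0 h to 0.576 and 0.597 CPM at 4 h in T-47D cells, a log2 fold change of -1.74 ± 0.25 (edgeR adjusted p = 7.22e-05). The genes for ligand secretion, PORCN and WLS, were called at no time in either line.

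Of 15 receptors and co-receptors tested in Ishikawa cells, 1, 2 and 3 rose and 2, 2 and 1 fell at 2, 4 and 8 h. Among all genes, 4.35%, 14.3% and 22.1% were called in either direction at these times. The count of receptors at 8 h is thus near that of all genes. In Ishikawa cells FZD5, a Frizzled receptor, was at 89.9 and 85.5 CPM at 0 h and 178 and 175 CPM at 2 h, a log2 fold change of 1.01 ± 0.06 (edgeR adjusted p = 9.32e-09) that was 1.03 at 4 h and 1.04 at 8 h. In T-47D cells 0 of 13 tested receptors and co-receptors rose at any time, and 4, 5 and 4 fell at 2, 4 and 8 h, while 9.30%, 21.5% and 29.7% of all genes were called in either direction, so the count at 8 h is near that of all genes. FZD4 went from 120 and 119 CPM at 0 h to 63.9 and 64.1 CPM at 2 h, a log2 fold change of -0.90 ± 0.05 (edgeR adjusted p = 4.72e-10). FZD2 fell in both lines at each time, for example by 0.61 ± 0.08 on the log2 scale at 4 h in Ishikawa cells (edgeR adjusted p = 1.53e-04) and by 0.44 ± 0.06 in T-47D cells (edgeR adjusted p = 2.90e-05), although its 2 h call in Ishikawa cells was lost without either 2 h library or 0 h replicate 2 (adjusted p up to 0.125). ZNRF3, the paralog of RNF43, rose at 4 h in both lines, by 0.24 ± 0.07 on the log2 scale in Ishikawa cells (edgeR adjusted p = 0.0303), a call lost in 5 of 8 single omissions (adjusted p up to 0.235). In T-47D cells its log2 fold change was 0.41 ± 0.11 at 2 h (edgeR adjusted p = 0.0173), 0.60 ± 0.10 at 4 h (edgeR adjusted p = 3.75e-04) and 0.67 ± 0.10 at 8 h (edgeR adjusted p = 8.99e-05), with the 2 h call lost without 2 h replicate 2 or 0 h replicate 1 (adjusted p up to 0.194).

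Of 11 nuclear factors tested in T-47D cells, 6, 5 and 7 fell at 2, 4 and 8 h and 0, 1 and 1 rose, beside the same shares of all genes (9.30%, 21.5% and 29.7%). TLE1, a co-repressor of TCF factors, fell by 0.53 ± 0.05 on the log2 scale at 2 h (edgeR adjusted p = 9.84e-07), and TCF7L1, a TCF factor that mostly represses, by 0.74 ± 0.06 at 4 h (edgeR adjusted p = 1.51e-07). In Ishikawa cells BCL9L, a β-catenin co-activator, fell at each time (log2 fold change -0.64 ± 0.09 at 2 h, edgeR adjusted p = 2.07e-04), and TLE3 rose at 2 h (0.73 ± 0.07, edgeR adjusted p = 4.03e-06). Other known β-catenin targets went both ways, with 2 up and 2 down of 9 in T-47D cells at 2 h, beside 9.30% of all genes. MYC, which is also a well known direct target of estrogen receptor, rose from 5.56 and 4.73 CPM to 26.5 and 32.1 CPM at 2 h in T-47D cells (log2 fold change 2.51 ± 0.11, edgeR adjusted p = 1.64e-11), while SOX9 fell by 0.63 ± 0.10 on the log2 scale (edgeR adjusted p = 2.96e-04). Among antagonists, APCDD1 rose in Ishikawa cells at 2 h (1.20 ± 0.22, edgeR adjusted p = 0.00328) and DKK1, which blocks LRP6, fell in T-47D cells at 4 h (-0.79 ± 0.19, edgeR adjusted p = 0.00616). Of 9 genes of the planar polarity and non-canonical arm tested in T-47D cells, 2 rose and 2 fell at 8 h. This stands beside 29.7% of all genes called in either direction. CELSR1 rose by 0.80 ± 0.04 on the log2 scale (edgeR adjusted p = 3.10e-10), and PRICKLE1, at 0.945 and 0.752 CPM at 0 h and 0.360 CPM in both 8 h libraries, had a log2 fold change of -1.23 ± 0.37 (edgeR adjusted p = 0.0174). The PRICKLE1 call was lost without either 8 h library or 0 h replicate 1 (adjusted p up to 0.126).

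Genes with the most similar course were found for each member called at 2 or more times in a line, as the highest Pearson correlation of log2 CPM over the 8 libraries of that line. These points share time points and libraries, and every gene that steps between 0 h and the treated times will score high, so the values are descriptions. For WNT7A in Ishikawa cells they were TNRC18 (r = 0.992), SALL2 (r = 0.989) and RGS3 (r = 0.988) among 13268 genes, and for WNT7B FUT3 (r = 0.980), ALKBH5 (r = 0.977) and AEN (r = 0.976). For AXIN2 they were ZHX2 (r = 0.957), WHAMMP1 and PTCHD1 (both r = 0.953). In T-47D cells they were HILPDA (r = 0.991), SH3BP4 (r = 0.990) and ZNF395 (r = 0.989) for RNF43 and DHX8 (r = 0.973), MUM1L1 (r = 0.967) and SMARCAL1 (r = 0.967) for WNT7B, among 13057 genes.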

How the data were processed

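Bulk poly(A) RNA was sequenced from directional libraries. Alignment by the authors used HISAT2 and the hg19 genome, followed by SAMtools. Raw counts, made with featureCounts from the UCSC Known Genes annotation, were deposited separately for each line. Tool versions, the strand setting and the treatment of read pairs and multi-mapping reads are not given in the sources used here.

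The deposited counts of all 16 libraries were used, grouped by the cell line and time of their labels. In R 4.3.3, edgeR 4.0.16 kept genes with filterByExpr (minimum count 10), scaled libraries by TMM and fitted time as a factor of 4 levels per line, or cell line by time over all 16 libraries, without a replicate block. Contrasts used the quasi-likelihood F-test, with Benjamini-Hochberg adjustment over all genes tested. SE was derived from the estimate and its F statistic. Likeness used log2 CPM (prior count 2) of genes with a mean of at least 1 CPM. TPM used GENCODE exon lengths on GRCh37, matched for 85.3% of symbols and 95.2% to 95.3% of counts. The fit was tested on simulated data.

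The members and lists were chosen with earlier results of these data known. Named genes are all members, the 2 genes per list and contrast with the largest change among those called, and the 3 genes most like each member called at 2 or more times, not all of which are reported. Precision is limited by 2 replicates, and intervals and floors cover counting error only. Alternatives were DESeq2 1.42.0, a replicate block, RLE scaling, a filter of 10 counts in every library or none, only the libraries compared, counts divided by 2, the 4 h and 8 h Ishikawa libraries as 1 group and leaving out each library. The MANE Select length was added after seeing the data.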

Additional observations from a re-analysis of the deposited data

Results flagged for a closer look

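Changes after E2 that differed between the lines, by the interaction of cell line and time over 16 libraries, were seen for 2 members. For WNT11 the log2 fold change in T-47D cells minus that in Ishikawa cells was -2.11 at 2 h and -2.88 at 8 h (edgeR adjusted p = 0.0296 and 0.00104). In Ishikawa cells its counts were 12 in both 0 h libraries and 20 to 62 in the treated ones, and in T-47D cells they went from 134 and 194 at 0 h to 65 and 84 at 8 h. For WNT7B the difference was -0.78 at 4 h and -0.76 at 8 h (edgeR adjusted p = 2.21e-04 and 2.17e-04), on 415 to 808 counts per library in Ishikawa cells and 1622 to 2453 in T-47D cells. The levels before E2 differed as well, with WNT7B higher in T-47D cells by 2.30 and WNT11 by 3.95 on the log2 scale, and the part that the starting level has in these differences was not tested.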

How the results depend on the processing

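Of the called log2 fold changes of the genes named or ranked here, 1519 of the alternative values kept their call and 172 lost it, and 0 changed sign. Of the changes that were not called, 34 alternative values became calls, and 2 changed sign: the line difference of RNF43 ranged from -0.24 (without Ishikawa 0 h replicate 2) to 0.31 at 4 h and from -0.50 to 0.032 (without Ishikawa 0 h replicate 1) at 8 h as single libraries were left out. A further 46 member changes are not printed as values, none with an unadjusted p under 0.05 and none from 4 h to 8 h. Of their 757 alternative values, 58 had the other sign. Some changes with an unadjusted p under 0.05 were not called and are not printed above either. They are the line differences of WNT5B at 2 h and 8 h (edgeR adjusted p = 0.414 and 0.180) and of WNT5A at 2 h (edgeR adjusted p = 0.480). The last are, in T-47D cells, the WNT5A change from 2 h to 8 h (edgeR adjusted p = 0.155) and the WNT4 change from 4 h to 8 h (edgeR adjusted p = 0.235).

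Counts of called members that moved by more than 1.5 times come first. In Ishikawa cells at 2 h the count of 1 became 2 with no filter and 2 with the stricter one (10 counts in every library), both by adding WNT11. At 8 h the count of 4 became 2 with DESeq2 and 2 with the replicate block, where AXIN2 and WNT11 had adjusted p-values of 0.0534 to 0.062. The line difference at 2 h and at 4 h went from 1 to 2 members each with each of DESeq2, only the libraries compared, RLE scaling, the stricter filter and none, which added WNT7B at 2 h and WNT11 at 4 h. At 0 h 3 of the 10 were called with the stricter filter, since the others were removed. Smaller moves were seen in Ishikawa cells at 4 h, from 4 to 5 with no filter and with 4 h and 8 h as 1 group (WNT11 added) and to 3 with DESeq2, with only the libraries compared and with the replicate block (AXIN2 lost). At 8 h in Ishikawa cells 3 were called with only the libraries compared and 5 with 4 h and 8 h as 1 group. With no filter, T-47D cells at 4 h went from 2 to 3 (WNT11) and the 8 h line difference from 2 to 3 (WNT5A), and with counts divided by 2 the 0 h difference went from 10 to 9. Leaving out 1 library gave 1 to 2 called members in Ishikawa cells at 2 h, 1 to 4 at 4 h and 2 to 4 at 8 h, 0 from 2 h to 8 h, 1 to 3 in T-47D cells at 2 h, 1 to 4 at 4 h, 4 to 5 at 8 h and 1 to 2 from 2 h to 8 h, and 0 to 2, 1 to 3 and 2 to 3 for the line differences. All 10 stayed called at 0 h under each omission. The number of genes called in Ishikawa cells also moved, from 686 to 1162 at 2 h with no filter, from 2251 to 4055 with 4 h and 8 h as 1 group, and from 353 between 2 h and 8 h to 581 with DESeq2, 1070 with no filter, 804 with only the libraries compared and 764 as 1 group. Same-numbered replicates did not vary together (correlations of -0.115 to 0.0595), so the numbers were not taken as pairs. The replicate block, which left 3 members called in Ishikawa cells at 4 h and 2 at 8 h, changed no other count of members. Per-length levels at 0 h were lower with other transcript lengths for most members, for example 28.4 TPM for WNT7A with the MANE Select transcript, and the share of WNT7A in the Ishikawa pool was then 39.0%. Members with few counts (WNT4, WNT5A, WNT11 and LGR5 in Ishikawa cells, AXIN2, NKD1, LGR5 and WNT5B in T-47D cells) allow no firm statement about small changes.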
